A study of Rattus norvegicus with 6 samples.

Results

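Oxidative phosphorylation subunits were followed through 90 probe sets of 81 gene symbols, out of 31042 probe sets on the array. A probe set is a group of short probes for one transcript. Members were the probe sets that the platform annotation assigns to exactly 1 symbol of the complex I families Ndufa, Ndufab, Ndufb, Ndufc, Ndufs and Ndufv, of succinate dehydrogenase (Sdha to Sdhd), of the Uqcr genes and Cyc1 of complex III, of the Cox4 to Cox8 genes of complex IV and of the Atp5 genes of complex V. Another 7 probe sets that carry several symbols, at least 1 of them matching, were left out. Of the members, 80 probe sets of 76 genes were bright enough to test. Ndufa4 and its relative Ndufa4l2 were counted with complex IV, where the Ndufa4 protein resides, and the pseudogene Cox6c-ps1 was counted with no complex.

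In the inner mitochondrial membrane, complexes I and II pass electrons from NADH and succinate to ubiquinone, complex III passes them to cytochrome c, and complex IV passes them to oxygen. Complexes I, III and IV pump protons while doing so, and complex V, the ATP synthase, lets the protons flow back to make ATP. White fat cells hold few mitochondria, brown fat cells hold many, and several complex IV subunits have a common form and a second form made in heart, skeletal muscle, brown fat, lung or testis.

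The tissue was mesenterial adipose tissue of newborn wildtype rats of the outbred Sprague-Dawley strain. In the adequate group (3 arrays) the dam's diet held 1000 IU vitamin D per kg, and in the deficient group (3 arrays) it held 0 IU per kg. Neither litter, sex nor pooling is labelled, so the p-values measure a spread between samples that may be technical, and the number of arrays limits every value. Of 9 fixed fat cell markers, Fabp4, Lpl, Cd36, Dgat2 and Lipe were above the brightness filter, while Adipoq, Cidec, Plin1 and Pparg were under it. The summed signal of the 9 was 4963 to 5294 in the adequate group, and 4067, 3844 and 6157 in the deficient group. In bulk tissue, fewer cells of a type and less RNA per cell cannot be told apart.

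Deficient arrays 1 and 2 differed from the remaining 4 in their quality measures. The spiked-in bacterial transcripts of the hybridisation mix had signals 7.19 and 10.1 times the adequate mean there, and 0.960 times it for deficient array 3. Their beta-actin 3' over 5' signal ratios, a measure of RNA integrity and labelling, were 7.56 and 6.80. Deficient array 3 had 2.35, and the adequate group had 2.39 to 4.81. The same ratio for Gapdh set them less apart, at 1.71 and 1.36 on deficient arrays 1 and 2, 1.09 on deficient array 3 and 1.13 to 1.30 in the adequate group. Exact two-sided permutation tests of these measures, in this order, gave p of 0.3, 0.4 and 0.5, where the smallest possible p is 0.1. The part of these measures in the results was not tested.

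The question was whether transcripts of the respiratory chain in offspring fat differ with maternal vitamin D supply. No subunit passed the adjusted threshold. By limma, 0 of 80 member probe sets had an adjusted p under 0.05, as did 0 of all 18625 tested (0%), and the smallest adjusted p of a member was 0.344. An unadjusted p under 0.05 was found for 12 of 80 member probe sets, 15%, beside 14.2% of all tested. They were 6 with higher values in the deficient group (all tested, 6.03%) and 6 with lower values (all tested, 8.18%). The split was 3 higher and 12 lower after quantile normalization and 8 higher and 1 lower with each array's trend with gene length removed. The groups did not overlap for 14 of 80 member probe sets, 17.5%, beside 17.4% of all tested. Of these, 9 lay higher in the deficient group (all tested, 6.55%) and 5 lower (all tested, 10.8%). The shares over both directions, 15% and 17.5%, lay near those of all tested probe sets. For the groups without overlap the shares by direction were 11.25% higher and 6.25% lower, which rest on 9 and 5 probe sets and have no test. The direction moved with the processing. Of the 76 tested genes, 35 had higher and 41 lower values, against 20 and 56 after quantile normalization and 47 and 29 with the length trend removed.

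**Figure D1:**
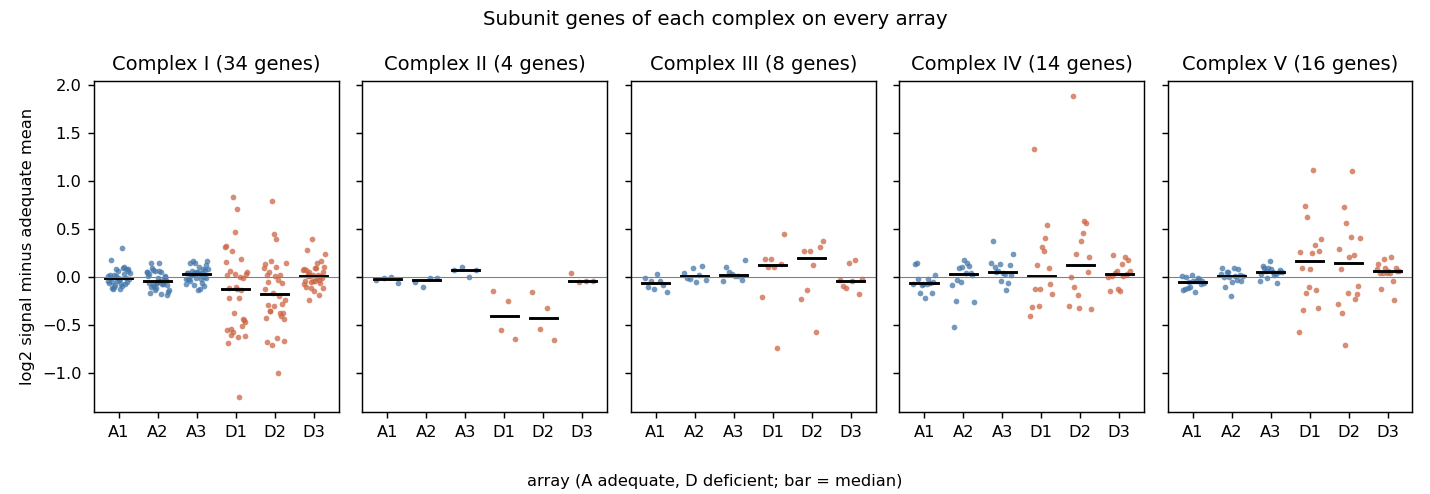
Log2 signal minus the mean of the adequate arrays (y axis) for each tested subunit gene on each of the 6 arrays (x axis; A adequate in blue, D deficient in orange), 1 panel per complex, with black bars at the median. On deficient arrays 1 and 2 the genes fan out in both directions, while on deficient array 3 they lie close to the adequate arrays; in complex II all 4 genes lie below 0 on deficient arrays 1 and 2.

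On deficient arrays 1 and 2 the subunits' values were spread wider than on the others. The middle part of the 76 genes (from the lower to the upper quartile of the log2 difference from the adequate mean) spanned 0.58 on deficient array 1 and 0.55 on deficient array 2. It spanned 0.13 on deficient array 3, and the adequate arrays had 0.09, 0.12 and 0.10. The 5581 tested probe sets at or above the 5th percentile of the members' mean signal spanned 0.63, 0.71 and 0.27 on the deficient arrays, also wider on arrays 1 and 2. The median over the 76 genes was -0.04 on deficient array 1, -0.07 on deficient array 2 and 0.03 on deficient array 3.

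The differences are given next by complex, as medians with no test. The median log2 difference, deficient minus adequate, was -0.05 over the 34 tested genes of complex I, -0.29 over the 4 of complex II, 0.08 over the 8 of complex III, 0.08 over the 14 of complex IV and 0.10 over the 16 of complex V. Over all tested probe sets it was -0.05. After quantile normalization the medians were -0.16, -0.35, -0.14, -0.13 and -0.09 for complexes I to V, so that complexes III, IV and V then lay below 0. With the length trend removed they were 0.07, -0.19, 0.18, 0.22 and 0.24. The tested subunit genes are short, with a median genomic length of 7128.5 bases against 27523 over all tested probe sets with a length. Complex II kept a median below 0 under both settings, but it was -0.04 without deficient arrays 1 and 2.

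In complex I, the NADH dehydrogenase, 23 of 34 tested genes had lower and 11 higher values in the deficient group, where 55.3% of all tested probe sets had lower values. All 6 measured core subunits, which form the electron path from NADH to ubiquinone, had lower values, with a median log2 difference of -0.28. The accessory subunits, which surround this core, divided into 17 lower and 11 higher, with a median of -0.04. Deficient array 2 lay below every adequate array for all 6 core genes and deficient array 1 for 4 of them, where 42.9% and 39.2% of all tested probe sets did so. Deficient array 3 lay within the adequate range for 5. Without deficient arrays 1 and 2 the core median was -0.04.

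Ndufs8, a core subunit that holds iron-sulfur clusters, read 11.22, 10.97 and 11.28 on the adequate and 10.54, 10.49 and 11.04 on the deficient arrays, in log2 signal. Deficient arrays 1 and 2 were low and the groups overlapped. Its log2 difference was -0.46 ± 0.18 (SE), with an unadjusted p of 0.0304 and an adjusted p of 0.344 by limma. Ndufs3 had -0.32 ± 0.16, Ndufv1, which binds NADH, -0.28 ± 0.17, and Ndufs7, the last iron-sulfur subunit before ubiquinone, -0.28 ± 0.16. Ndufs1 and Ndufv2 were closer to 0, at -0.12 ± 0.17 and -0.03 ± 0.16.

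Among accessory subunits of complex I with lower values, Ndufb8, of the membrane arm, read 10.50, 10.02 and 10.07 on the adequate and 8.95, 9.20 and 10.19 on the deficient arrays. Deficient arrays 1 and 2 were low, deficient array 3 lay among the adequate arrays, and the log2 difference was -0.75 ± 0.29 (SE, unadjusted p 0.0271, limma). Ndufa8, which sits on the face toward the intermembrane space, read 11.63, 11.53 and 11.67 on the adequate and 11.00, 11.26 and 11.37 on the deficient arrays. It was the only tested gene of complex I with all deficient arrays below all adequate arrays, at a log2 difference of -0.40 ± 0.15 (SE, unadjusted p 0.0270, limma). Ndufb10, of the membrane arm, had -0.46 ± 0.18 and Ndufa3 -0.49 ± 0.19, both with an overlap of the groups.

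Among genes of complex I with higher values, those with the smallest p belong to the membrane arm. Ndufb1 read 12.08, 12.13 and 11.99 on the adequate and 12.90, 12.86 and 12.02 on the deficient arrays, so deficient arrays 1 and 2 were high and array 3 was not. Its log2 difference was 0.53 ± 0.23 (SE, unadjusted p 0.0437, limma), and -0.05 without deficient arrays 1 and 2. Ndufb5 had 0.35 ± 0.20 and Ndufb2 0.29 ± 0.18, each at -0.04 without that pair of arrays. Ndufa1 and Ndufa12 lay higher on all deficient than on all adequate arrays, by 0.16 ± 0.16 and 0.18 ± 0.15 (SE).

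In complex II, succinate dehydrogenase, all 4 genes had lower values in the deficient group, and all 4 lay below every adequate array on deficient arrays 1 and 2. Sdhd, a membrane anchor subunit, was measured by a pair of probe sets. The brighter read 12.03, 12.08 and 12.16 on the adequate and 11.45, 11.44 and 12.06 on the deficient arrays, and the other 11.30, 10.85 and 11.15 against 9.98, 10.33 and 11.20. Both were low on deficient arrays 1 and 2 and near the adequate arrays on deficient array 3. Their log2 differences were -0.44 ± 0.19 and -0.60 ± 0.28 (SE), with unadjusted p of 0.0391 and 0.0545 by limma.

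Sdhb, the iron-sulfur subunit, read 12.09, 12.00 and 12.20 on the adequate and 11.54, 11.56 and 12.05 on the deficient arrays, a log2 difference of -0.38 ± 0.18 (SE). Sdhc, the other anchor, read 11.89, 11.87 and 11.89 against 11.64, 11.57 and 11.84, so its groups did not overlap, at -0.20 ± 0.15. Sdha, the flavoprotein that oxidises succinate, differed least, at -0.09 ± 0.14, with 11.51, 11.48 and 11.61 against 11.38, 11.37 and 11.57. Without deficient arrays 1 and 2 the difference was 0.04 for Sdha, -0.05 for Sdhb, -0.04 for Sdhc and -0.04 for the brighter probe set of Sdhd.

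The promoters of the complex II genes are shown with those of Ndufb8 and Atp5mk, so that promoters of genes that read low together on deficient arrays 1 and 2 stand beside that of the tested member with the lowest log2 difference and that of the tested member with the smallest p, which read high. Each line gives the 250 bases before the annotated gene start, 5′ to 3′ on the gene's strand, from RefSeq, build GRCr8. Capitals mark matches on either strand to the NRF1 letters (GCGCA, any base, GCGC) of nuclear respiratory factor 1, or to CCGGAAG, a site of the ETS factors that include GABPA, both textbook regulators of respiratory genes.
Sdha, chr1:30764303-30764552, plus strand: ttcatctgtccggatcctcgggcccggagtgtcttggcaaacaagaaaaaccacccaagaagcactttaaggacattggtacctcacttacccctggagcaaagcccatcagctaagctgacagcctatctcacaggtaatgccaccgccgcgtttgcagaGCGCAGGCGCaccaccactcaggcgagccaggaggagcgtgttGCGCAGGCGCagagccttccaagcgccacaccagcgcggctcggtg
Sdhb, chr5:158547684-158547933, plus strand: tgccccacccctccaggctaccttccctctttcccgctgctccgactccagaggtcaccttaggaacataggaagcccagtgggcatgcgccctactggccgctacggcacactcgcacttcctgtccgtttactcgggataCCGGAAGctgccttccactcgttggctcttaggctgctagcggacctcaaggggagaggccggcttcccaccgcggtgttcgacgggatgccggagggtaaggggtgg
Sdhc, chr13:86098026-86098275, minus strand: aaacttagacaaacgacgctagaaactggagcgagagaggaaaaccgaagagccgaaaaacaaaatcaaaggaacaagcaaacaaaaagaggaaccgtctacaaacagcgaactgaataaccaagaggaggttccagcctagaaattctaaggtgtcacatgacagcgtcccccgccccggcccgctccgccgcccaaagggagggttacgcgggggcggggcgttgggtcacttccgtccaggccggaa
Sdhd, chr8:59850642-59850891, minus strand: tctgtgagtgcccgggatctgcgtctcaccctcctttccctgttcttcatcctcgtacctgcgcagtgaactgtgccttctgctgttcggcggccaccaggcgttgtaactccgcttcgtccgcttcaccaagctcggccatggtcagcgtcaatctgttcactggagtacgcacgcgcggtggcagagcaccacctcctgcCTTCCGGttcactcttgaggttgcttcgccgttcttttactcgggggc
Ndufb8, chr1:253362937-253363186, minus strand: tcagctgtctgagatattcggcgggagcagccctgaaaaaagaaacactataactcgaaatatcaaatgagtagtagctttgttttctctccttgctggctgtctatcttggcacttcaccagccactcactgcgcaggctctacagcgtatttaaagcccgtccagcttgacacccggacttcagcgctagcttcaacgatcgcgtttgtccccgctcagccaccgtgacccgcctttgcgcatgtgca
Atp5mk, chr1:255922048-255922297, minus strand: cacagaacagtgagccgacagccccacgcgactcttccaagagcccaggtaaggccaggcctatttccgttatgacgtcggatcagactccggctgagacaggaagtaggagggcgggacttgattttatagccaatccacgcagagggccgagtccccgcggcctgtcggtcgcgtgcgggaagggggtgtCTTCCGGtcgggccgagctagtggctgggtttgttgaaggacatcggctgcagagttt

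Of 80 subunit genes other than the pseudogene, 72 had a promoter in the table. Cyc1, Ndufa8, Ndufb9, Uqcr11, Atp5pd, Cox4i2, Cox6a1 and Cox6c did not. The NRF1 letters occurred in 10 of 72 member promoters, 13.9%, and in 5.45% of 19005 promoters of protein-coding genes. The ETS letters occurred in 19 of 72, 26.4%, and in 9.52% of all. Of the promoters shown, Sdha had 2 NRF1 matches, Sdhb, Sdhd and Atp5mk had 1 ETS match each, and Sdhc and Ndufb8 had neither set of letters. Among members with lower values 4 of 35 held the NRF1 and 9 of 35 the ETS letters, and among those with higher values 6 of 33 and 10 of 33. Matches of the NRF1 and ETS letters overlapped in 0 of the 72 promoters. A match is a stretch of letters, and binding was not measured.

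**Figure D2:**
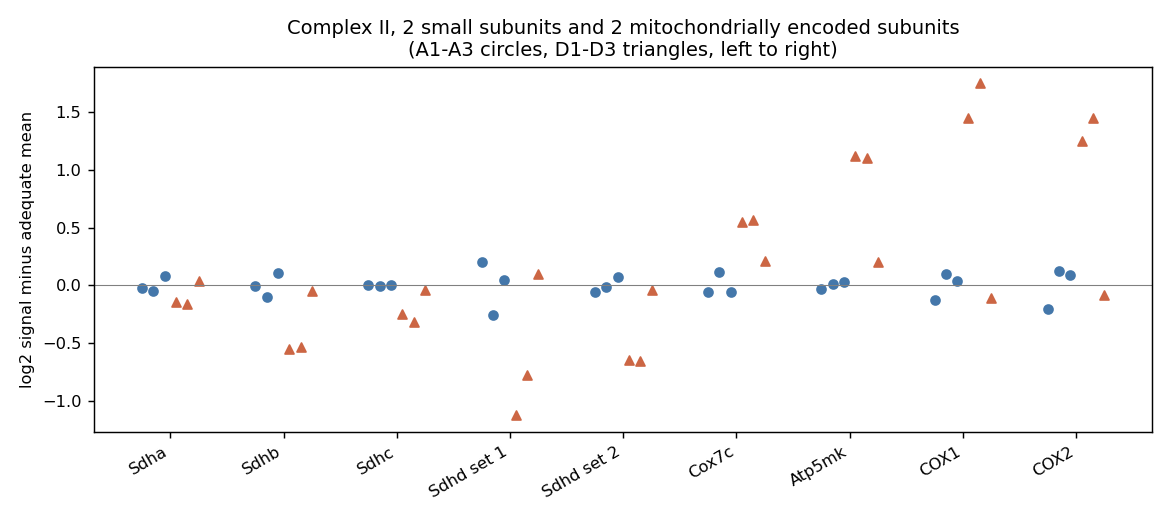
Log2 signal minus the adequate mean (y axis) on each array for the 5 probe sets of complex II, for Cox7c and Atp5mk, and for the mitochondrially encoded COX1 and COX2 (circles adequate arrays, triangles deficient arrays, in array order). On deficient arrays 1 and 2 complex II lies below and the other 4 genes above 0, and on deficient array 3 Cox7c and Atp5mk, both at 0.21, lie farthest from it.

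In complex III, the cytochrome bc1 complex, both redox subunits had lower values and 5 of the other 6 tested genes had higher values. Uqcrfs1, the Rieske iron-sulfur protein, read 12.52, 12.58 and 12.56 on the adequate and 11.82, 11.99 and 12.73 on the deficient arrays. Deficient arrays 1 and 2 were low and deficient array 3 was the highest of all 6, at a log2 difference of -0.37 ± 0.23 (SE), and 0.18 without deficient arrays 1 and 2. Cyc1, which carries the heme of cytochrome c1, had -0.15 ± 0.14. The core proteins Uqcrc1 and Uqcrc2 had 0.20 ± 0.15 and 0.07 ± 0.15.

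Uqcrc1 was the only tested complex III gene without overlap between the groups, at 11.77, 11.99 and 11.93 against 12.09, 12.17 and 12.04. Of the 4 small subunits, Uqcrq had 0.27 ± 0.18, Uqcr10 0.12 ± 0.17, Uqcrh 0.09 ± 0.17 and Uqcr11 -0.04 ± 0.15 (SE). All 4 were lower than the adequate mean on deficient array 3. No complex III gene had an unadjusted p under 0.05 by limma.

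The 6 core genes of complex I, the 4 of complex II and the redox pair of complex III make 12 genes. All 12 had lower values in the deficient group (all tested, 55.3%), with a median of -0.28. This grouping by role was made after the values were seen and has no test. It left out Uqcrc1 (0.20) and Uqcrc2 (0.07) of complex III and COX1 (1.02) and COX2 (0.87) of complex IV, all with higher values. For Uqcrc2 this is the brighter probe set, and the dimmer had -0.36. Of the other 34 tested genes of complexes I and III, 18 had lower values, with a median of -0.01. Over the 76 tested subunit genes, the log2 difference had a Spearman rho of 0.51 with the mean log2 signal. The part of signal in this contrast was not tested. Of the 12 genes, 10 lay below all adequate arrays on deficient array 1 (all tested, 39.2%), 12 on deficient array 2 (all tested, 42.9%) and 2 on deficient array 3. On deficient array 3, where 28.2% of all tested probe sets lay below the adequate arrays, 9 of the 12 lay within their range. Lower values were found for 12 of the 12 after quantile normalization and for 11 with the length trend removed. Of the other 34 tested genes, 23 and 9 had lower values under these settings. Without deficient arrays 1 and 2, lower values were found for 8 of the 12, with a median of -0.03, and for 16 of the 34.

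**Figure D3:**
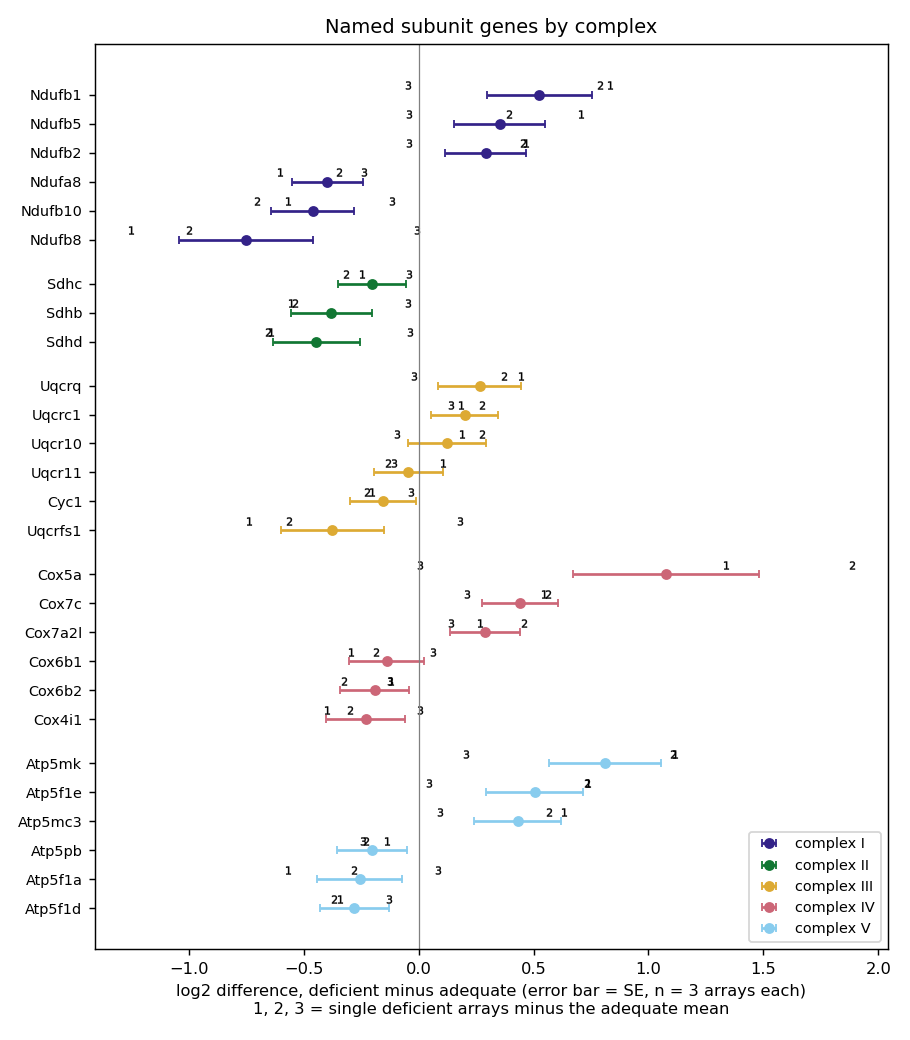
Log2 difference between the groups, deficient minus adequate (x axis), with its standard error (bars, n = 3 arrays in each group) for up to 3 genes with higher and 3 with lower values in each complex, coloured by complex. The digits mark each deficient array minus the adequate mean; digit 3 lies nearer to 0 than digits 1 and 2 for all genes shown except Atp5pb and Cox6b2.

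Complex IV, cytochrome c oxidase, had 9 genes with higher and 5 with lower values of 14 tested. Cox7c, a small subunit with 1 form, read 12.31, 12.48 and 12.31 on the adequate and 12.92, 12.93 and 12.58 on the deficient arrays. All deficient arrays were above all adequate arrays, and the log2 difference was 0.44 ± 0.16 (SE), a fold of 1.36, with an unadjusted p of 0.0219 and an adjusted p of 0.344 by limma. Cox7a2l, which helps join complexes III and IV into a supercomplex, also did not overlap, at 12.18, 12.29 and 12.28 against 12.52, 12.71 and 12.39, a difference of 0.29 ± 0.15.

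Cox5a, a subunit facing the matrix, had the highest log2 difference of any tested member, 1.08 ± 0.40 (SE, unadjusted p 0.0232, limma). It read 7.40, 7.01 and 7.36 on the adequate and 8.59, 9.14 and 7.27 on the deficient arrays. Deficient array 3 was among the adequate arrays and the other deficient arrays were high. Without deficient arrays 1 and 2 the log2 difference of Cox5a was 0.007. Cox7b had 0.34 ± 0.19. Cox4i1, the common form of the regulatory subunit 4, read 13.10, 13.10 and 13.33 against 12.78, 12.88 and 13.18, a difference of -0.23 ± 0.17, and Cox6b1, at the face where dimers join, had -0.14 ± 0.16. Cox5b, at 0.00 ± 0.16, and Cox8a, at 0.06 ± 0.16, were nearly level.

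Tissue forms were compared with common forms only as differences between arrays, because signals of different probe sets are not on 1 scale. The forms typical of heart and skeletal muscle were under the filter's cutoff of 6.46, a signal of 88.2. Cox8b, of muscle and brown fat, read 1.75, 1.80 and 1.37 on the adequate and 2.01, 1.89 and 2.27 on the deficient arrays. Cox6a2, of striated muscle, read 3.89, 2.98 and 3.70 against 4.74, 5.03 and 5.11. In both the deficient arrays were the higher ones, but at levels where no fold is given. Cox7a1, of muscle and brown fat, read 5.88, 6.12 and 7.20 against 6.67, 6.23 and 6.41, with adequate array 3 and deficient array 1 over the cutoff. Cox7b2, a testis form, ranged from 3.15 to 5.10.

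Markers of the cells that make these forms were measured beside them. Of 11 striated muscle markers with a probe set, 8 were above the filter and Actn2, Myh8 and Ttn under it, and their summed signal was 3055 to 3485 on the adequate and 2963 to 3321 on the deficient arrays. Of 5 cardiac markers 3 were above it, Nppa and Myl7 were not, and the sums were 2429 to 3127 and 2462 to 2758. Of 8 brown fat markers only Adrb3 and Ppargc1a were above the filter, and Ucp1, the uncoupling protein that defines brown fat, Cidea, Dio2, Elovl3, Cox7a1 and Cox8b were under it, with sums of 797 to 886 and 836 to 993.

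**Figure D4:**
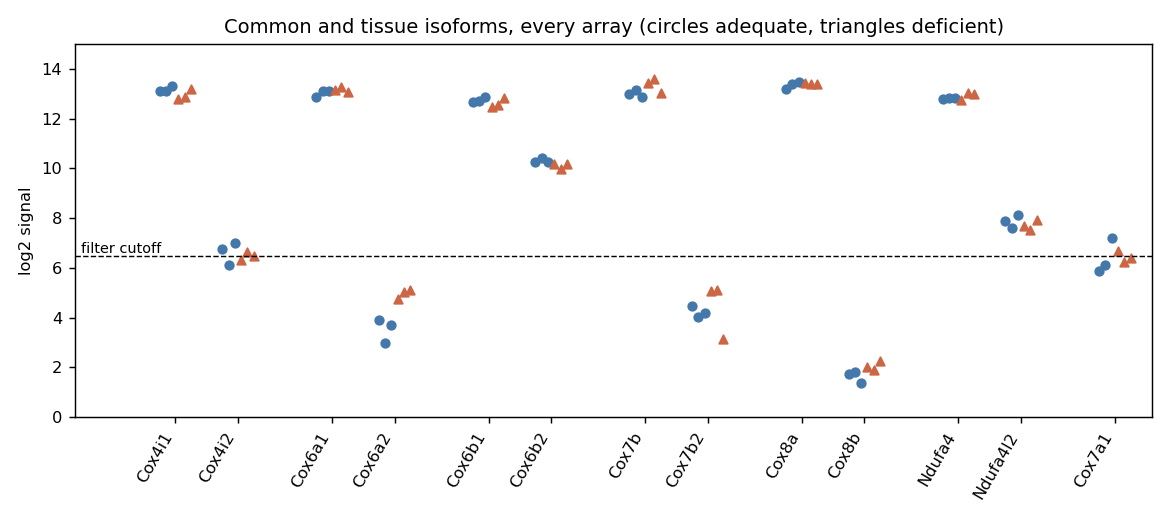
Log2 signal (y axis) of the common forms and tissue forms of complex IV subunits on every array (circles adequate, triangles deficient, in array order); the dashed line is the filter's cutoff of 6.46. Cox6a2, Cox7b2 and Cox8b lie under the line on all 6 arrays, Cox4i2 and Cox7a1 straddle it, and the common forms lie well above it; heights of different genes are not comparable.

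The tissue forms Cox4i2, Cox6b2 and Ndufa4l2 were tested, and none had an unadjusted p under 0.05 by limma. Cox4i2, a form of lung and vessel walls, read 6.77, 6.11 and 7.01 on the adequate and 6.32, 6.63 and 6.49 on the deficient arrays, a difference of -0.15 ± 0.30 (SE). Ndufa4l2, a hypoxia-induced relative of Ndufa4, read 7.89, 7.61 and 8.11 against 7.69, 7.53 and 7.93, also -0.15, with an SE of 0.23. Cox6b2, known from testis, read 10.24, 10.42 and 10.27 against 10.19, 9.99 and 10.18, and its groups did not overlap, at -0.19 ± 0.15. Their common partners differed by -0.23 for Cox4i1, 0.11 for Ndufa4 and -0.14 for Cox6b1.

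In 3 pairs the ratio of tissue form to common form could be tested. The log2 ratio, relative to the adequate mean, was 0.08 ± 0.22 (SD, n = 3) in the deficient group for Cox4i2 over Cox4i1, against an SD of 0.39 in the adequate group. It was -0.05 ± 0.20 for Cox6b2 over Cox6b1 (adequate SD 0.17) and -0.26 ± 0.25 for Ndufa4l2 over Ndufa4 (adequate SD 0.25), n = 3 each. Exact two-sided permutation p were 0.8, 0.8 and 0.3, and 0.8 for each after Benjamini-Hochberg adjustment over the 3 pairs, where 3 against 3 arrays cannot give a p below 0.1. The summed signal of 7 pericyte markers, of which Higd1b was under the filter, was 6386 to 7819 on the adequate and 5617 to 6907 on the deficient arrays.

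In complex V, the ATP synthase, 10 of 16 tested genes had higher and 6 lower values. Atp5mk, a small membrane subunit that stabilises the synthase, read 13.14, 13.19 and 13.20 on the adequate and 14.29, 14.28 and 13.38 on the deficient arrays. All deficient arrays were above all adequate arrays, deficient arrays 1 and 2 most. Its mean was 13.18 ± 0.03 and 13.99 ± 0.52 (SD, n = 3 each), a log2 difference of 0.81 ± 0.24 (SE) and a fold of 1.75, with an unadjusted p of 0.00742, the smallest of all members, and an adjusted p of 0.344 by limma. It was 0.21 without deficient arrays 1 and 2.

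Atp5mc3, a gene for the proton-carrying ring subunit c, read 13.14, 13.24 and 13.33 against 13.87, 13.80 and 13.33. Deficient array 3 was level with the highest adequate array at this rounding and above it only in further decimals. The log2 difference was 0.43 ± 0.19 (SE, unadjusted p 0.0450, limma). Atp5f1e, the small epsilon subunit of the central stalk, had 0.50 ± 0.21, with 12.81, 12.98 and 12.99 against 13.66, 13.66 and 12.97, with deficient array 3 inside the adequate range. The membrane subunits as a group had 5 of 6 genes with higher values and a median of 0.21.

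Subunits of the catalytic head and central stalk went both ways. Atp5f1b, the catalytic beta subunit, was at 0.23 ± 0.16 and did not overlap, while Atp5f1a, the alpha subunit beside it, had -0.26 ± 0.18 (SE) and 0.08 without deficient arrays 1 and 2. Atp5f1d, the delta subunit of the stalk, read 12.23, 12.12 and 12.32 on the adequate and 11.88, 11.86 and 12.10 on the deficient arrays, lower on all of the latter, at -0.28 ± 0.15. Among peripheral stalk genes, Atp5po had 0.29 ± 0.16 and Atp5pb -0.20 ± 0.15, and neither overlapped. Atp5pb read 13.01, 13.12 and 12.97 against 12.90, 12.80 and 12.79, and its lowest value was on deficient array 3. Atp5if1, which blocks the synthase when the membrane loses its charge, had -0.23 ± 0.21, with 12.06 on deficient array 3 and 11.17 on deficient array 2. Another pair of Atp5if1 probe sets, under the filter, lay above every adequate array on deficient arrays 1 and 2. They read 5.99, 5.57 and 6.15 against 7.76, 7.42 and 4.68, and 4.87, 5.12 and 6.05 against 6.88, 6.40 and 5.74.

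Several genes were measured more than once. Of 8 genes with more than 1 probe set, 4 had a pair above the filter, and in 3 of these the pair differed in sign. Uqcrc2 had 0.07 ± 0.15 and -0.36 ± 0.22 (SE), Ndufa7 0.04 ± 0.14 and -0.35 ± 0.20, and Ndufv3 0.15 ± 0.15 and -0.25 ± 0.27, the brighter probe set first. Sdhd was the gene whose pair had the same sign. For the 3 discordant genes the dimmer probe set was below every adequate array on deficient arrays 1 and 2, whereas the brighter was not below it on either.

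The array carries named probe sets for 2 of the mitochondrially encoded subunits, and they read higher on the same pair of arrays on which complex II read lower. COX1, the catalytic subunit of complex IV made from mitochondrial DNA, read 14.58, 14.81 and 14.75 on the adequate and 16.15, 16.46 and 14.60 on the deficient arrays. COX2, which takes electrons from cytochrome c, read 14.36, 14.68 and 14.65 against 15.81, 16.01 and 14.48. The log2 differences were 1.02 ± 0.40 and 0.87 ± 0.36 (SE), with unadjusted p of 0.029 and 0.034 and an adjusted p of 0.344 for each by limma. On deficient array 3 both lay within the adequate range. The summed signal of 7 smooth muscle markers, all above the filter, was 103500 and 109200 on deficient arrays 1 and 2, 67340 on deficient array 3 and 53910 to 65750 in the adequate group. Of the 7, 5 had higher and 2 lower values. Mylk (0.85 ± 0.28, SE), Myh11 (0.69 ± 0.24), Tagln (0.62 ± 0.24) and Cnn1 (0.33 ± 0.16) were the brightest and had higher values, Smtn had a lower value (-0.47 ± 0.20), and Acta2 (0.00 ± 0.20) and Lmod1 (-0.02 ± 0.19) were nearly level. Their part in the result was not tested.

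Other genes of the pathway were read from fixed lists, and none of their members passed the adjusted threshold by limma. Of 40 tested assembly factors, which build the complexes, 29 had lower values (all tested, 55.3%), with a median of -0.14. At an unadjusted p under 0.05 there were 7 lower (all tested, 8.18%) and 0 higher (all tested, 6.03%). Coa5, needed for complex IV, had -0.52 ± 0.15 (SE), at 11.16, 10.84 and 11.10 on the adequate and 10.48, 10.44 and 10.64 on the deficient arrays, all of them lower. Sdhaf3, which helps mature complex II, had -0.67 ± 0.23 and read 8.20, 7.85 and 7.91 against 7.59, 7.15 and 7.20. In these genes deficient array 3 was low along with the others.

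Electron carriers and ubiquinone synthesis had 11 of 15 genes with lower values (all tested, 55.3%) and a median of -0.12. At an unadjusted p under 0.05 there was 1 of 15 (all tested, 14.2%), Coq9, at -0.52 ± 0.16 (SE). Coq9, which aids ubiquinone synthesis, read 10.07, 9.80 and 9.86 on the adequate and 9.33, 9.37 and 9.47 on the deficient arrays, without overlap. Coq8a had 0.83 ± 0.38. Citrate cycle enzymes, which feed the chain, had 9 of 12 lower (all tested, 55.3%) and a median of -0.24, with Ogdh at -0.59 ± 0.19 and Suclg1 at -0.38 ± 0.20. Ogdh was the 1 enzyme of 12 at an unadjusted p under 0.05 (all tested, 14.2%).

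Carriers of ATP, phosphate and protons had 5 of 9 genes higher, a median of 0.01, and 1 gene in each direction at an unadjusted p under 0.05 (all tested, 6.03% higher and 8.18% lower). Ucp2, an uncoupling protein relative, had -0.63 ± 0.27 (SE), and Ckmt2, the muscle mitochondrial creatine kinase, had 6.22 in the adequate group, under the filter's cutoff, and 6.86 in the deficient group. Regulators of respiratory genes had 8 of 18 higher and a median of -0.03, with 2 higher and 0 lower at an unadjusted p under 0.05 (all tested, 6.03% and 8.18%). Mterf3, a repressor of mitochondrial transcription, had 0.93 ± 0.24 and read 10.43, 10.70 and 10.22 against 11.62, 11.69 and 10.82. Ppargc1b, a coactivator of mitochondrial genes, had 0.80 ± 0.21 and read 8.07, 7.61 and 7.91 against 8.93, 8.55 and 8.50. Both were higher on all 3 deficient arrays than on all adequate arrays.

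The count of subunits past the adjusted threshold depended on 1 array. Without deficient array 3 it was 31 of 80 probe sets, 12 higher and 19 lower, 38.8% beside 19.4% of all tested (8.75% higher and 10.7% lower). That fit keeps deficient arrays 1 and 2, the pair with the high hybridisation controls and beta-actin ratios, whose part was not tested. No such share was computed for the 5581 tested probe sets as bright as the members, so the 2 shares are not matched for signal. In complex I, 3 genes were then higher (Ndufb1, Ndufb2 and Ndufb5) and 12 lower, among them 4 of the 6 core genes. In complex II, Sdhb and Sdhd were lower. In complex III, Uqcrq was higher and Uqcrfs1 lower. In complex IV, Cox5a, Cox7a2l, Cox7b and Cox7c were higher and no gene was lower. In complex V, Atp5f1e, Atp5mc3, Atp5mk and Atp5po were higher and Atp5f1a and Atp5f1d lower. With array weights, which gave deficient array 3 the smallest weight, 0.262, 36 of 80 members had an unadjusted p under 0.05 by limma (all tested, 35.9%). The count past the adjusted threshold was then 20, 25% beside 18.6% of all tested (8.14% higher and 10.4% lower). Without deficient arrays 1 and 2, where the spread of the adequate arrays stands for the lone deficient array, it was 0, beside 0% of all tested, with 1 member at an unadjusted p under 0.05 by limma, where 6.52% of all tested had one.

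At an unadjusted p under 0.05 by limma, leaving out deficient array 3 gave 40 of 80 member probe sets (all tested, 35.3%). Leaving out deficient array 1 gave 1 of 80 (all tested, 8.85%) and leaving out deficient array 2 gave 2 of 80 (all tested, 4.86%). The count was 2, 8 and 3 of 80 without adequate arrays 1, 2 and 3 (all tested, 5.77%, 12.0% and 7.74%). Leaving out any array other than deficient array 3 left 0 members past the adjusted threshold.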

How the data were processed

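Total RNA, labelled with biotin, was hybridised to 6 Affymetrix rat arrays. The deposited values are linear intensity signals per probe set, and per the submitters' processing notes the authors used MAS5 and Affymetrix Expression Console; no source used here states its settings. MAS5 scales arrays to a common level, so differences in total RNA are not seen. The median signal per array was 155 to 166.

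Of 31099 probe sets, 57 controls were left out. Log2 signals were compared, deficient minus adequate, with limma 3.58.1 in R 4.3.3 (lmFit, eBayes with a variance trend, two-sided, Benjamini-Hochberg at 0.05) over the 18625 probe sets with a mean log2 signal at or above the 40th percentile (6.46), and members were read from that fit. Gene counts use each gene's brightest tested probe set. Symbols come from the platform annotation, and gene lengths and promoters from RefSeq (GRCr8), matched by Entrez identifier. Exact permutation tests used scipy 1.17.1, and the steps were tested on simulated data.

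The rule for named genes took, by smallest unadjusted p, at most 3 tested genes in each direction per complex, every isoform pair, and up to 2 genes of each pathway list. Other core subunits, genes without overlap and genes with discordant probe sets were named after their values were seen. Members and lists were chosen with earlier results of these data known. Samples were grouped by title. Deviations of same-numbered arrays from their group means had correlations of 0.107, 0.153 and 0.00655, and 5 of 6 arrays correlated best with their own number. Deviations cancel within a group, so these matches are not independent and the count does not show a pairing. The labels name no pairing, so the main fit used none, and a replicate block was run as an alternative. The alternatives were quantile normalization, median centring, other filters, an offset of 50, other variance models, array weights, a replicate block, leaving out arrays, covariates for the hybridisation controls and the beta-actin ratio, the length trend and averaging over probe sets of 1 gene.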

Additional observations from a re-analysis of the deposited data

How the results depend on the processing

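The count of probe sets past the adjusted threshold was 0 under every setting run except array weights (3462) and without deficient array 3, and it ranged from 0 to 3614 over the fits that leave out 1 array. The count of member probe sets at an unadjusted p under 0.05 was 36 with array weights, 1 without deficient arrays 1 and 2, 1 with the hybridisation covariate and 2 with the beta-actin covariate, and it ranged from 1 to 40 over the fits that leave out 1 array. With the replicate block it was 14 (main 12), with 0 past the adjusted threshold.

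Quantile normalization gave medians of -0.16, -0.14, -0.13 and -0.087 for complexes I, III, IV and V, and removal of the length trend gave 0.065, 0.18, 0.22 and 0.24. Without deficient arrays 1 and 2 the medians were -0.041 for complex II and -0.035 for complex III. With the hybridisation covariate they were -0.062 and -0.033, and with the beta-actin covariate complex III had -0.018. Leaving out 1 array gave -0.11 to -0.0078 for complex I, -0.41 to -0.22 for complex II, 0.017 to 0.17 for complex III, 0.024 to 0.12 for complex IV and 0.080 to 0.15 for complex V.

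Some log2 differences reversed in sign, and the cause was not tested. Without deficient arrays 1 and 2, Ndufb1 had -0.048, Ndufb5 -0.042, Ndufb2 -0.042, Uqcrq -0.022, Uqcr10 -0.095, Uqcrfs1 0.18, Cox4i1 0.0061, Cox6b1 0.063, Atp5f1a 0.083, Ndufa4l2 0.064 and the ratio of Cox4i2 to Cox4i1 -0.14. With the hybridisation covariate, Ndufb5 had -0.0095, Ndufb2 -0.0021, Uqcrq -0.018, Uqcr10 -0.10, Uqcrfs1 0.12, Cox6b1 0.027, Atp5f1a 0.036 and Ndufa4l2 0.067. With the beta-actin covariate, Cox4i2 had 0.0022 and Ndufa4l2 0.013. After quantile normalization, Uqcr10 had -0.14, Cox6a1 -0.12, Cox8a -0.24, Ndufa4 -0.097 and the ratio of Cox6b2 to Cox6b1 0.17. With the length trend removed, Uqcr11 had 0.095. Leaving out 1 array gave -0.41 to 0.042 for Cox4i2, -0.023 to 0.12 for Cox8a, -0.12 to 0.00016 for Uqcr11, -0.14 to 0.20 for Cox4i2 over Cox4i1, -0.16 to 0.031 for Cox6b2 over Cox6b1 and -0.40 to -0.11 for Ndufa4l2 over Ndufa4. The labels do not say whether same-numbered arrays belong together, and the 5 of 6 arrays that correlated best with their own number do not show it. The planned ratios that need Cox7a2, Atp5mc1 or Atp5mc2 were not run, since these genes have no probe set with 1 symbol, and those of Cox6a2 and Cox8b were not run because they were under the filter. With 3 arrays per group, differences of the size of most subunits' could not be told from the spread.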

Other observations

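Markers of organs next to the mesentery set adequate array 3 apart. The summed signal of 6 hepatocyte markers was 5714 on that array and 1069 to 2599 on the other 5 arrays, and that of 6 markers of intestinal epithelium was 4807 against 821 to 1253. The complex medians of adequate array 3, relative to the adequate mean, were between 0.03 and 0.07. In each complex this was the highest median of the adequate arrays. Its part in the differences between the groups was not tested.

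Among the 76 tested subunit genes, the log2 difference between the groups had a Spearman rho of 0.51 and a Pearson r of 0.22 with the mean log2 signal, and 0.02 by either measure with the log2 gene length. Over all tested probe sets the values with signal were 0.01 and 0.06. The values with log2 gene length were 0.18 and 0.17 over the 13835 tested probe sets that have a length. These are correlations across genes that share the same 6 arrays, and genes are not independent replicates.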
